A study of Homo sapiens with 12 samples.

Results

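Fatty acid oxidation is described here through 40 genes of its mitochondrial and peroxisomal enzymes, carriers and electron acceptors, in cultured human bile duct cells. The rule took members by gene symbol and used no measured value, but the list was drawn up with earlier results of these data known. All 40 symbols matched 1 Ensembl gene each among the 62703 genes of the count table, of which 42087 had at least 1 count. All 40 members also passed the filter on low counts and stand among the 21567 genes tested. The cells were H69, a single line of normal human cholangiocytes immortalised with a viral large T antigen, so every group carries that transgene. Each group went through 6 h without serum before an overnight treatment in serum-free medium. The 4 groups of 3 libraries received vehicle, TGFβ at 10 ng/mL, Aramchol at 30 µM, or TGFβ and Aramchol together. Aramchol, a conjugate of a bile acid and a long saturated fatty acid, is known to lower stearoyl-CoA desaturase activity. TGFβ is a cytokine known for inducing matrix genes and loss of epithelial character.

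Fatty acids are first activated to acyl-CoA by synthetases. The carnitine shuttle then passes long chains across the inner mitochondrial membrane. Inside, each turn of β-oxidation runs through an acyl-CoA dehydrogenase, a hydratase, a hydroxyacyl-CoA dehydrogenase and a thiolase, and the electrons of the first step reach the respiratory chain through the electron transfer flavoprotein (ETF). Peroxisomes shorten very long and branched chains, and the side chains of bile acid precursors, with their own oxidases, bifunctional enzymes and thiolases. In liver the pathway is known chiefly from hepatocytes.

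Total counts per library ran from 52279922 to 70339925. Of the cholangiocyte markers, KRT7, KRT8, KRT18 and SLC4A2 were abundant in every group, whereas CFTR and SCTR did not exceed 0.149 CPM (counts scaled to a common library size, with TMM factors) in any library. With TGFβ 8 of the 10 tested cholangiocyte markers were called at an adjusted p under 0.05 (edgeR), beside 37% of all genes tested. Of these 8, 4 were higher and 4 lower. CDH1 fell from 72.9 ± 9.67 to 11.1 ± 0.834 CPM, with EPCAM, SOX9 and KRT19 also lower, and AQP1 rose from 0.385 ± 0.0160 to 8.09 ± 0.572 CPM, with KRT7, KRT8 and SLC4A2 also higher. All 13 markers summed to 1370 to 2231 CPM in vehicle, 2624 to 2846 CPM with TGFβ, 1694 to 2045 CPM with Aramchol and 2376 to 2627 CPM with both. Hepatocyte markers summed to at most 1.73 CPM, with TTR at 0 in all 12 libraries, and leukocyte markers to at most 0.219 CPM, with CD3E at 0. The 7 fibroblast markers summed to 145 to 193 CPM in vehicle and 463 to 577 CPM with TGFβ, to 165 to 168 CPM with Aramchol and to 345 to 429 CPM with both agents. That rise came with COL1A2 and PDGFRB, while COL3A1 stayed at or below 0.115 CPM. Of the 6 fibroblast markers tested, 4 were called higher and 1 lower with TGFβ, beside 18.9% and 18.1% of all genes. The part of other cell states in the results on the members was not tested. Vehicle replicate 3 stood apart from its group, with KRT7 at 275 CPM against 706 and 677 CPM in replicates 1 and 2. The libraries numbered 3 also stood together on the third principal component, which held 6.68% of the variance. Counts of called members are given with and without these libraries, and so are single values of ETFDH, HSD17B10 and CPT1A. Nothing in the labels says that the replicates are separate cultures. The p-values therefore speak only of the scatter among these libraries, and that scatter may be technical.

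Levels of different genes were compared per kilobase of exon. The divisor counts every annotated exon base, from 1277 for ECHS1 to 24901 for HSD17B4, so the ranks depend on the annotation. In CPM without that divisor ACADVL was the highest member, at 277 over the 12 libraries, and ECHS1 stood at 81.9. ECHS1, the short-chain hydratase of the mitochondrial spiral, was the highest at 64.1 CPM per kilobase over the 12 libraries. ACADVL, the dehydrogenase for very long chains, followed at 57.4, and HADHA, a subunit of the trifunctional protein, at 53.2 CPM per kilobase. The order of these 3 is not firm in vehicle, where ACADVL (54.6 ± 1.46, SD, n = 3) and HADHA (55.2 ± 2.10) differed by less than their spread. HSD17B10 (35.8), ACSL1 (24.3) and HADHB (23.9 CPM per kilobase) came next. This order over the 12 libraries is not that of each group: ACSL1 stood above HADHB in vehicle (29.0 and 25.2 CPM per kilobase) and below both HADHB and ACAA2 with TGFβ (17.6, 22.6 and 18.4 CPM per kilobase). At the other end stood AMACR (0.0336), ACAD11 (0.300) and ACOX2 (0.401 CPM per kilobase). AMACR shares 72.3% of its exon bases with another gene model and ACAD11 75.5%, and how such bases were counted is not given in the labels, so both values are uncertain. AMACR also had as few as 4 counts in a library.

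**Figure D1:**
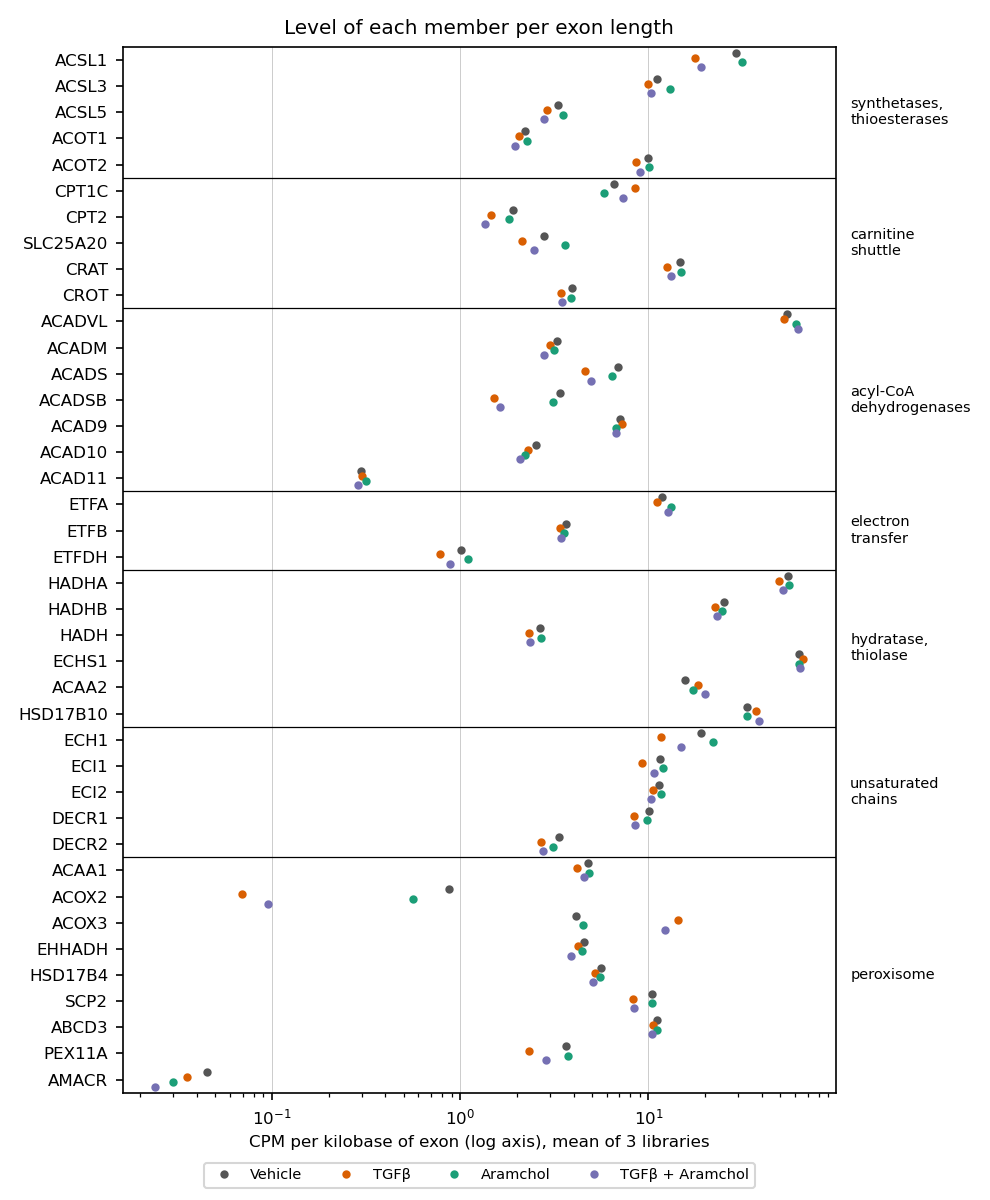
Mean CPM per kilobase of exon (log axis) of each of the 40 members in the 4 groups, 3 libraries per group, ordered by role. ECHS1, ACADVL and HADHA lie at the right, AMACR at the left, and the 4 groups lie close together for most members, with ACOX2 and ACOX3 as the widest exceptions.

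TGFβ against vehicle lowered more members than it raised. Of the 40, 17 fell and 3 rose (edgeR quasi-likelihood test, Benjamini-Hochberg adjusted p under 0.05, hereafter "called"), which is 50% of the members beside 37% of all genes tested. By direction, 18.1% of all tested genes were called lower and 18.9% higher. The median log2 fold change was -0.18 over the members and -0.03 over all tested genes, and 33 members had a negative sign. Most changes were small: the median size among called members was 0.35 on the log2 scale, against 0.56 among all called genes, and only ACOX2, ACOX3 and ACADSB passed 2-fold. Calls were more frequent at higher counts: among the 11286 genes with a mean of at least 5 CPM 48.8% were called and 22.8% were lower. Of the 36 members at that level 19 were called and 16 were lower. Without Vehicle replicate 3 the count of called members was 21, and with the libraries numbered 1 and 2 alone it was 24. The shares of all genes called in those fits were not counted, so these counts are not read as results about the members. In a bulk sample, fewer cells expressing a gene and less of its RNA per cell cannot be told apart.

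Summed over the 40 members, CPM stood at 2413, 2442 and 2425 in vehicle and at 2173, 2186 and 2278 with TGFβ. The 3 TGFβ libraries all lay below the 3 vehicle libraries, and the means differed by -8.84%. Members that were lower changed by -296 CPM in all, of which ACSL1 took the largest amount, and members that were higher added 81.5 CPM. With Aramchol alone the sums were 2500, 2528 and 2516 CPM, above every vehicle library. With both agents they were 2338, 2265 and 2319 CPM, which overlap the TGFβ range.

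**Figure D2:**
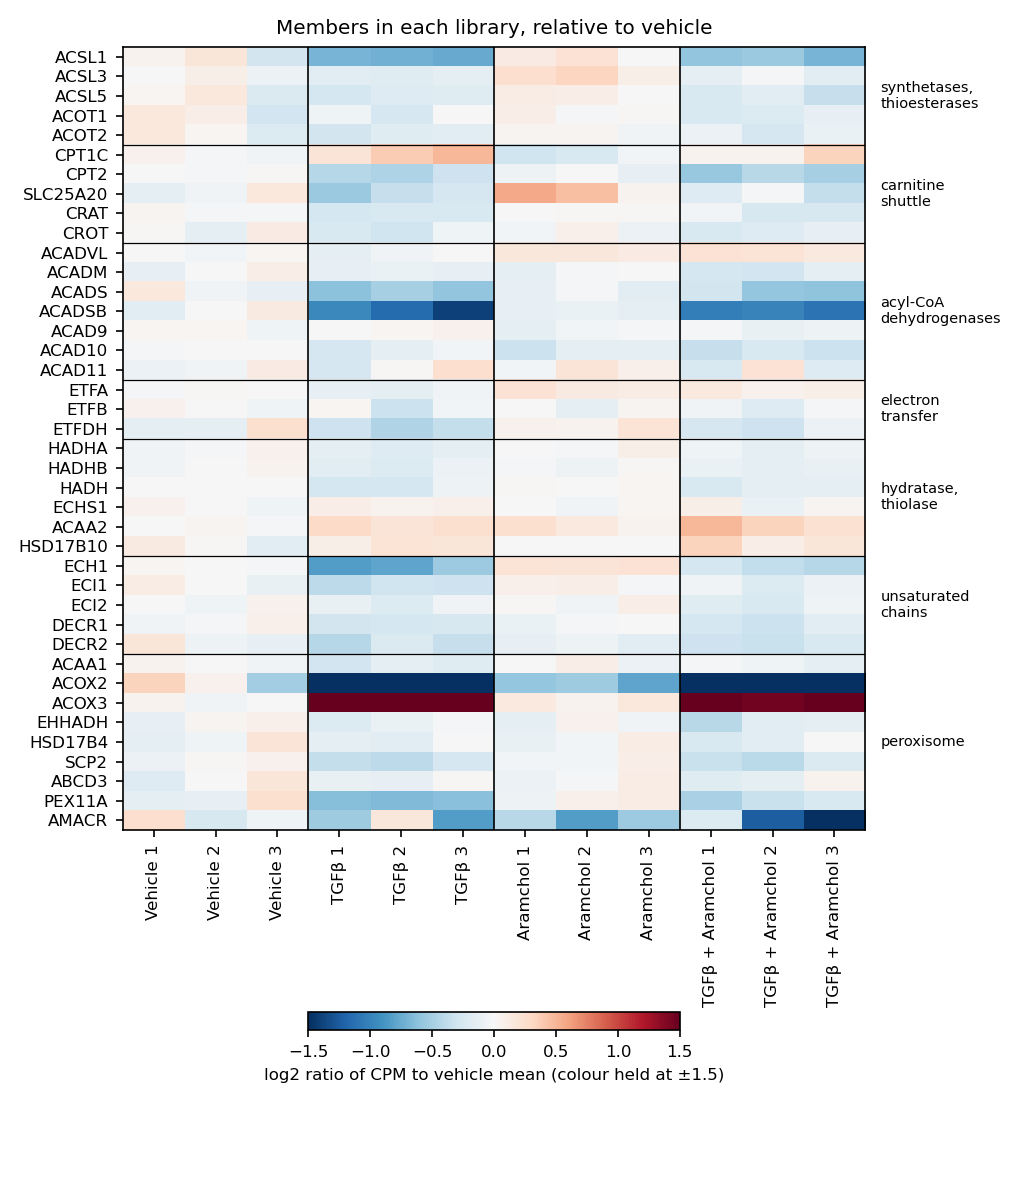
Log2 ratio of CPM to the vehicle mean for each member (rows, by role) in each of the 12 libraries (columns); colour is held at ±1.5. Blue shades fill much of the TGFβ and the TGFβ + Aramchol columns. In them ACOX3 is the deepest red and ACOX2 the deepest blue throughout, with ACADSB also deep blue. AMACR, which rests on few counts, reaches deep blue in TGFβ + Aramchol replicates 2 and 3.

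The acyl-CoA synthetases and thioesterases set how much fatty acid is held as acyl-CoA. ACSL1, the main long-chain synthetase linked to oxidation, had 196, 213 and 157 CPM in vehicle and 116, 115 and 112 CPM with TGFβ. It had 206, 219.9 and 190.2 CPM with Aramchol and 125, 128 and 117 CPM with both. All 6 libraries with TGFβ lay below all 6 without, and Vehicle replicate 3 was the lowest of the latter. ACSL1 fell by 0.72 ± 0.09 (SE) on the log2 scale (adjusted p = 8.1e-06, edgeR). ACSL3, a synthetase of the endoplasmic reticulum and lipid droplets, was at 161 ± 9.50 and 143 ± 1.80 CPM (log2 -0.17, adjusted p = 0.054, edgeR), and ACSL5 at 13.8 ± 1.79 and 11.9 ± 0.352 CPM. The thioesterases ACOT1 and ACOT2, which free the fatty acid again, were not called. They are near-identical paralogs, so reads may be split between them in ways the counts do not show. In this role group 1 of 5 members was called with TGFβ alone, beside 37% of all genes tested.

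The carnitine shuttle carries acyl groups across membranes, and 2 of its 5 members fell and 1 rose, beside 18.1% and 18.9% of all genes. CPT2, which returns the acyl group to CoA inside the mitochondrion, had 19.4, 19.1 and 19.5 CPM in vehicle and 14.3, 14.0 and 15.6 CPM with TGFβ. With Aramchol it had 18.4, 19.2 and 17.7 CPM, and with both 13.0, 14.5 and 13.7 CPM. The 6 TGFβ libraries did not overlap the other 6, and CPT2 fell by 0.40 ± 0.07 (adjusted p = 0.00027, edgeR). CRAT, the short-chain carnitine acetyltransferase and the highest of the group per kilobase, had 115, 111 and 109.8 CPM in vehicle and 93.0, 95.6 and 95.5 CPM with TGFβ. It had 112, 113 and 113 CPM with Aramchol and 109, 94.3 and 94.3 CPM with both, so that replicate 1 of the combined group sat near the untreated level. CRAT fell by 0.24 ± 0.06 (adjusted p = 0.0029, edgeR).

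CPT1C went the other way. This brain-type relative of the rate-limiting transferase CPT1A resides mainly in the endoplasmic reticulum and has little transferase activity of its own. Its CPM were 40.4, 38.1 and 37.1 in vehicle, 44.1, 50.2 and 54.3 with TGFβ, 31.4, 32.8 and 37.4 with Aramchol, and 39.8, 40.0 and 48.8 with both. TGFβ libraries all lay above vehicle, by a log2 fold change of 0.36 ± 0.09 (adjusted p = 0.0055, edgeR). The carrier SLC25A20 was at 5.28 ± 0.565 CPM in vehicle and 4.06 ± 0.436 CPM with TGFβ, just short of the threshold (log2 -0.38, adjusted p = 0.053, edgeR). CROT, the peroxisomal octanoyltransferase, had a log2 fold change of -0.20 (adjusted p = 0.082, edgeR).

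Among the 7 acyl-CoA dehydrogenases 2 fell, beside 18.1% of all genes called lower, and these 2 act on short or branched chains. ACADSB, which acts on short branched acyl-CoA from isoleucine, had 18.9, 21.1 and 23.2 CPM in vehicle and 10.8, 9.46 and 7.98 CPM with TGFβ. With Aramchol it had 19.4, 19.6 and 19.1 CPM and with both 10.3, 10.5 and 9.76 CPM. The libraries with TGFβ were all below 11 CPM and the others all above 18 CPM. ACADSB was 2.24-fold lower with TGFβ (log2 -1.16 ± 0.10, adjusted p = 1.9e-07, edgeR). ACADS, the short-chain dehydrogenase, had 19.9, 17.3 and 16.5 CPM in vehicle, 11.7, 12.7 and 11.8 with TGFβ, 16.5, 17.6 and 15.9 with Aramchol, and 14.8, 12 and 11.8 with both. It fell by 0.57 ± 0.10 (adjusted p = 0.00022, edgeR), with no overlap between the groups.

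ACADVL, the most abundant dehydrogenase, did not pass the test with TGFβ (263 ± 7.02 and 252 ± 12.3 CPM, log2 -0.06 ± 0.05, adjusted p = 0.35, edgeR). ACADM, for medium chains, was at 45.0 ± 3.42 and 41.5 ± 0.311 CPM (log2 -0.12), and ACAD10 at 22.7 ± 0.256 and 20.6 ± 1.46 CPM (log2 -0.14). ACAD9, which also serves the assembly of respiratory complex I, had a log2 fold change of 0.03 and ACAD11 one of 0.02. None of these 5 members was called in TGFβ against vehicle.

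ACADSB lies head to head with IKZF5, a zinc finger gene on the opposite strand, and the stretch between their exons is printed because only 1 of the 2 genes moved. It is taken from RefSeq promoter records on GRCh38.p14 (chr10:123008813-123008978, plus strand, 166 bases, between the gene models of the count table). Capitals mark 2 copies of GGGCGG, the GC box.
ACADSB: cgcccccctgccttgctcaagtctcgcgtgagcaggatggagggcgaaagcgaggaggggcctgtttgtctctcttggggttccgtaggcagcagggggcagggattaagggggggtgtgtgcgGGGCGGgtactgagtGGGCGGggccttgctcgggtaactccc
IKZF5 was at 14.9 ± 2.63 CPM in vehicle and 14.2 ± 0.206 CPM with TGFβ (log2 -0.06 ± 0.10, adjusted p = 0.67, edgeR), beside the 2.24-fold lower ACADSB. IKZF5 and TRMT44 below were chosen as neighbours after their values were seen.

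ETF takes the electrons from these dehydrogenases and ETFDH passes them to ubiquinone. ETFDH had 21.9, 22.1 and 28.7 CPM in vehicle, 19.5, 17.7 and 18.9 with TGFβ, 25.4, 25.1 and 28.0 with Aramchol, and 20.4, 19.6 and 22.8 with both. TGFβ libraries lay below vehicle, among which replicate 3 was the highest, and ETFDH fell by 0.38 ± 0.10 (adjusted p = 0.0066, edgeR). The size of this change rests partly on that library: without Vehicle replicate 3 ETFDH fell by 0.24 (adjusted p = 0.027), and with the libraries numbered 1 and 2 alone by 0.25 (adjusted p = 0.0094, edgeR). The flavoprotein's subunits were not called: ETFA had a log2 fold change of -0.10 ± 0.05 (adjusted p = 0.11) and ETFB one of -0.10 ± 0.09 (adjusted p = 0.39, edgeR).

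The hydratase, dehydrogenase and thiolase steps lay nearest to 0, with all 6 members within 0.25 of 0 on the log2 scale. Of these 6, 3 were called lower and 1 higher, beside 18.1% and 18.9% of all genes. ECHS1 had 84.6, 80.6 and 77.2 CPM in vehicle, 86.3, 83.7 and 85.1 with TGFβ, 80.4, 77.6 and 82.2 with Aramchol, and 86.0, 75.4 and 83.2 with both. Its libraries with TGFβ alone overlapped vehicle and all lay above those with Aramchol alone. The log2 fold change of ECHS1 with TGFβ was 0.07 ± 0.06 (adjusted p = 0.34, edgeR). HADH, the dehydrogenase for shorter chains, fell by 0.20 ± 0.06 (adjusted p = 0.016, edgeR). ACAA2, the mitochondrial thiolase, rose from 76.6 ± 2.10 to 90.5 ± 2.92 CPM (log2 0.24 ± 0.07, adjusted p = 0.010, edgeR). HSD17B10, which serves isoleucine breakdown and mitochondrial tRNA processing as well as oxidation, was at 94.5 ± 9.84 and 106 ± 4.45 CPM (adjusted p = 0.096, edgeR).

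HADHA and HADHB encode the subunits of the trifunctional protein, which runs the last 3 steps for long chains. HADHA was at 231, 237 and 249 CPM in vehicle and 218, 209.6 and 218 CPM with TGFβ, and HADHB at 104, 107 and 112 and at 95.4, 93.4 and 101 CPM. Neither gene's groups overlapped, and they fell by 0.15 ± 0.05 and 0.16 ± 0.05 (adjusted p = 0.023 for each, edgeR). Their ratio per kilobase stayed close, at 2.20 ± 0.00351 in vehicle, 2.20 ± 0.0660 with TGFβ, 2.27 ± 0.0470 with Aramchol and 2.24 ± 0.0219 with both (SD, n = 3). The 2 genes are transcribed away from each other, and an exon-free stretch between their main start sites is printed because, unlike the other pairs, both sides moved together. It is chr2:26244673-26244747 (minus strand, 75 bases, RefSeq, GRCh38.p14), and it holds none of the motifs searched, so no letters are in capitals.
HADHA: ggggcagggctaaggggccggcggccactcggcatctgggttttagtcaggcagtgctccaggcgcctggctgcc
The calls for both genes were lost in several alternatives, as were those for HADH, ACAA1 and DECR2. For HADHA and HADHB these included the fit without Vehicle replicate 3.

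The auxiliary enzymes, which bring double bonds of unsaturated chains into the position that the spiral can use, had 4 of 5 members lower and none higher, beside 18.1% of all genes called lower. ECH1, a dienoyl-CoA isomerase found in both organelles, had 44.7, 43.8 and 43.5 CPM in vehicle and 24.6, 25.4 and 30.2 CPM with TGFβ. With Aramchol it had 50.9, 50.3 and 51.2 CPM and with both 36.7, 34.0 and 32.6 CPM. The 4 groups of ECH1 did not overlap each other at any point. It fell by 0.72 ± 0.07 with TGFβ (adjusted p = 8.7e-07, edgeR). The enoyl-CoA isomerase ECI1 fell from 37.1 ± 2.96 to 29.4 ± 0.987 CPM, the mitochondrial reductase DECR1 from 50.9 ± 2.33 to 42.5 ± 0.529 CPM and the peroxisomal reductase DECR2 from 13.5 ± 1.55 to 10.8 ± 0.776 CPM. ECI2, the other isomerase, was not called (log2 -0.12, adjusted p = 0.15, edgeR).

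The peroxisomal members held the changes of greatest size, in opposite directions for a pair of oxidases that act on branched substrates. ACOX2, the oxidase of bile acid intermediates and branched fatty acids, had 4.20, 3.49 and 2.33 CPM in vehicle and 0.302, 0.329 and 0.164 CPM with TGFβ. With Aramchol it had 2.23, 2.31 and 1.93 CPM and with both 0.262, 0.348 and 0.477 CPM. Every library with TGFβ lay below 0.5 CPM and every other one above 1.9 CPM. ACOX2 was 12.4-fold lower with TGFβ (log2 -3.63 ± 0.29, adjusted p = 5.9e-08, edgeR), from a low level, with as few as 9 counts in a library.

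ACOX3, the related oxidase of branched fatty acids, had 16.3, 15.3 and 15.8 CPM in vehicle and 53.8, 54.9 and 56.2 CPM with TGFβ. It had 17.5, 16.4 and 17.6 CPM with Aramchol and 45.9, 43.3 and 51.8 CPM with both. The 6 libraries with TGFβ were all above 43 CPM and the others all below 18 CPM. ACOX3 rose 3.48-fold (log2 1.80 ± 0.07, adjusted p = 1.9e-11, edgeR). Per kilobase, the ratio of ACOX3 to ACOX2 was 4.99 ± 1.54 in vehicle, 228 ± 98.6 with TGFβ, 7.98 ± 1.00 with Aramchol and 135 ± 34.6 with both (SD, n = 3), a ratio of which the ACOX2 side rests on few counts.

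ACOX3 lies head to head with TRMT44, a gene for a tRNA methyltransferase, with 53 bases between their exons (chr4:8440724-8440776, minus strand, RefSeq, GRCh38.p14). The stretch is printed because the neighbours parted: TRMT44 was at 11.5 ± 0.747 CPM in vehicle and 10.3 ± 0.989 CPM with TGFβ (log2 -0.17 ± 0.09, adjusted p = 0.17, edgeR). Capitals mark TGACGTCA, the CRE, a motif that was looked for after the sequence had been seen.
ACOX3: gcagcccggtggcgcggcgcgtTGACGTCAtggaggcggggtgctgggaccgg
The same letters stand within the 250 bases before the start of ACOX3 and ACAD9 among the members, and in 1.65% of all 35116 RefSeq promoters. A match describes letters only.

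PEX11A, which takes part in the division of peroxisomes, had 10.4, 10.6 and 13.6 CPM in vehicle, 7.42, 7.26 and 7.49 with TGFβ, 10.9, 12.2 and 12.5 with Aramchol, and 8.21, 9.12 and 9.83 with both. It fell by 0.64 ± 0.11 (adjusted p = 0.000225, edgeR), and the libraries with TGFβ all lay below those without. SCP2, a thiolase and sterol carrier for branched chains, fell from 86.0 ± 4.46 to 68.1 ± 3.40 CPM, and the straight-chain thiolase ACAA1 from 34.0 ± 1.32 to 29.6 ± 1.53 CPM. ABCD3 is the transporter that brings branched acyl-CoA and bile acid precursors into peroxisomes. It was the highest peroxisomal member per kilobase over the 12 libraries (10.8, against 9.38 for SCP2 and 8.78 for ACOX3). In CPM, without division by exon length, HSD17B4 was the highest, at 133 against 82.7 for ABCD3. In the groups with TGFβ ABCD3 stood below ACOX3, at 10.6 against 14.3 CPM per kilobase with TGFβ and 10.4 against 12.2 with both agents. Its CPM were 74.0, 84.2 and 96.4 in vehicle, 78.3, 78.2 and 86.0 with TGFβ, 79.9, 83.6 and 91.9 with Aramchol, and 74.8, 76.8 and 88.1 with both. All 4 groups of ABCD3 overlapped (log2 -0.07 ± 0.09, adjusted p = 0.58, edgeR), and in each of them replicate 3 was the highest. The bifunctional enzymes EHHADH and HSD17B4 each had a log2 fold change of -0.10 and were not called, nor was the racemase AMACR (log2 -0.32 ± 0.45).

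**Figure D3:**
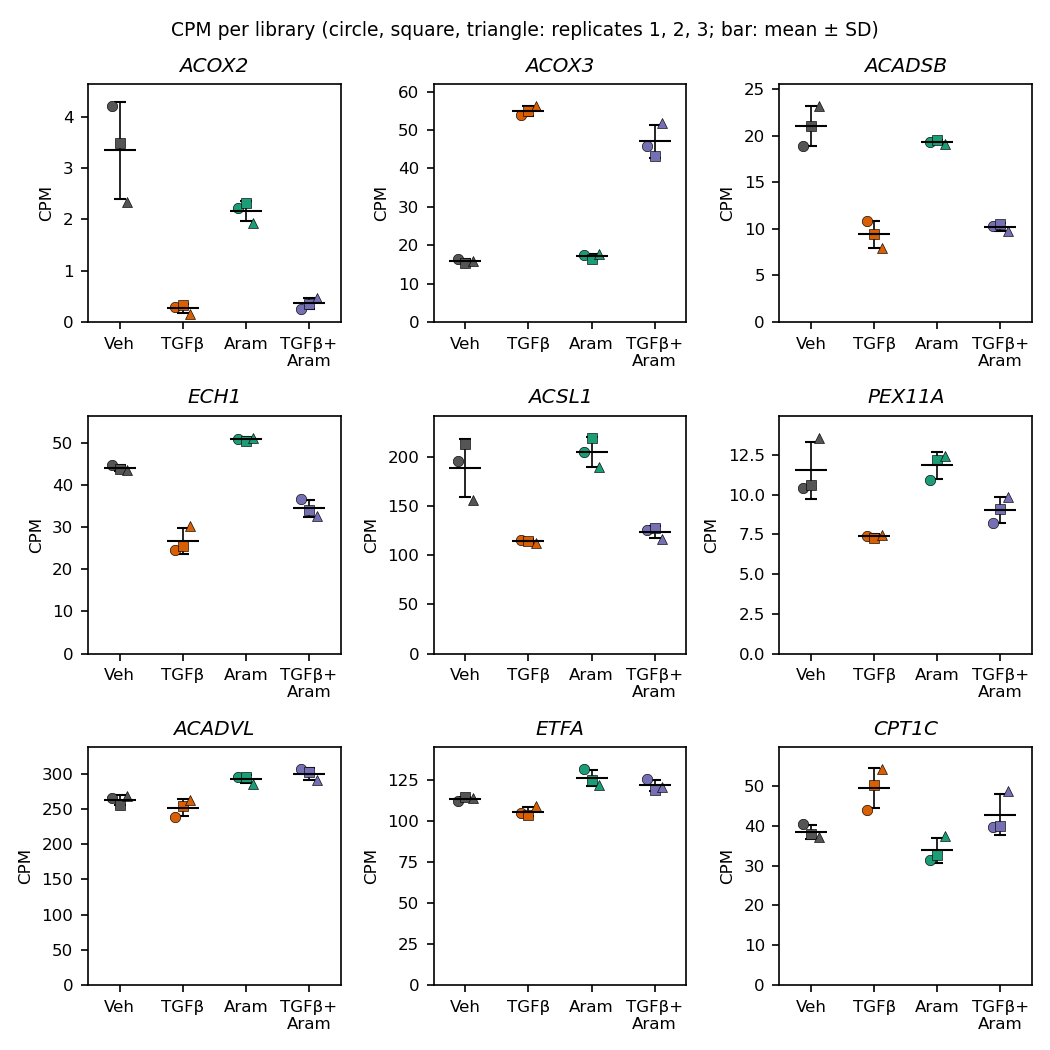
CPM of 9 members in each library (points, by replicate number) with mean ± SD per group of 3; the axes start at 0 and differ between panels. The TGFβ and TGFβ + Aramchol libraries sit apart from the other 6 for ACOX2, ACOX3, ACADSB, ECH1 and ACSL1, whereas ACADVL and ETFA lie higher in the 2 Aramchol groups.

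The same question can be asked with Aramchol present, where TGFβ + Aramchol was compared with Aramchol. This comparison shares no library with the first, but both were read from 1 fit with a shared estimate of the spread. The calls are therefore not fully separate: ACADM and ECI2 lost theirs with Aramchol present when Vehicle replicate 2 was left out. With Aramchol present 17 members fell and 4 rose, 52.5% of the 40 beside 30.2% of all genes tested (14.2% lower, 16% higher). Among genes with a mean of at least 5 CPM 40.3% were called and 18.4% were lower. Of the 36 members at that level 20 were called and 16 were lower. The median log2 fold change was -0.17 over the members. Of the members called, 15 were called in the same direction in both comparisons, which is 75% of the 20 called without Aramchol and 71.4% of the 21 called with it. They were ACADS, ACADSB, ACOX2, ACSL1, CPT2, CRAT, DECR1, ECH1, ETFDH, HADH, PEX11A and SCP2, all lower, and ACAA2, ACOX3 and CPT1C, all higher. Of these 15, 8 kept both calls in each of the 22 alternatives run (ACADS, ACADSB, ACOX2, ACOX3, ACSL1, CPT2, ECH1 and SCP2). CRAT, HADH, ACAA2, ETFDH, DECR1, CPT1C and PEX11A lost the call with Aramchol present in 1 or more of them, and HADH also the other. The sign of the change was the same for 37 of 40 members. The shares of all tested genes that repeated a call or a sign were not counted. The repeat is therefore not shown to be particular to the members.

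The largest changes were again ACOX2 (log2 -2.56 ± 0.27, adjusted p = 2.5e-06), ACOX3 (1.45 ± 0.07, adjusted p = 2.5e-10) and ACADSB (-0.93 ± 0.10, adjusted p = 3.0e-06, edgeR). ACAA1, DECR2, ECI1, HADHA and HADHB were called in the first comparison and not in the second, and ACADM, ACSL3, ACSL5, ECI2, SLC25A20 and the rising HSD17B10 in the second and not in the first. No member passed a test of the difference between the comparisons, and this division depends on the fit. With the replicate block ECI1 was also called with Aramchol present (log2 -0.17, adjusted p = 0.048), as were EHHADH and HSD17B4, and ACSL3, ACSL5, ECI2 and SLC25A20 were also called without it (adjusted p = 0.015, 0.045, 0.035 and 0.038, edgeR). HSD17B10 was called without Aramchol when Vehicle replicate 1 was left out (log2 0.24, adjusted p = 0.021, edgeR). ACSL3 fell by 0.33 and SLC25A20 by 0.55 in the presence of Aramchol (adjusted p = 0.00092 and 0.0079, edgeR). Within each replicate number, all 20 and all 21 called members moved the way of their call. Apart from ACAA2 with Aramchol present, their groups did not overlap, so any pairing of libraries would give this and it adds no support. Against vehicle, TGFβ + Aramchol lowered 14 members and raised 4, 45% beside 35.2% of all genes (17% lower, 18.2% higher). Among genes with a mean of at least 5 CPM 46.2% were called and 20% were lower. Of the 36 members at that level 17 were called and 13 were lower. The 4 that rose were ACOX3, ACAA2, HSD17B10 and ACADVL, and ACAD10 was among those that fell (log2 -0.30, adjusted p = 0.0047, edgeR). HSD17B10 was not called there without Vehicle replicate 3 (log2 0.14 against 0.21 with all libraries, adjusted p = 0.13, edgeR).

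**Figure D4:**
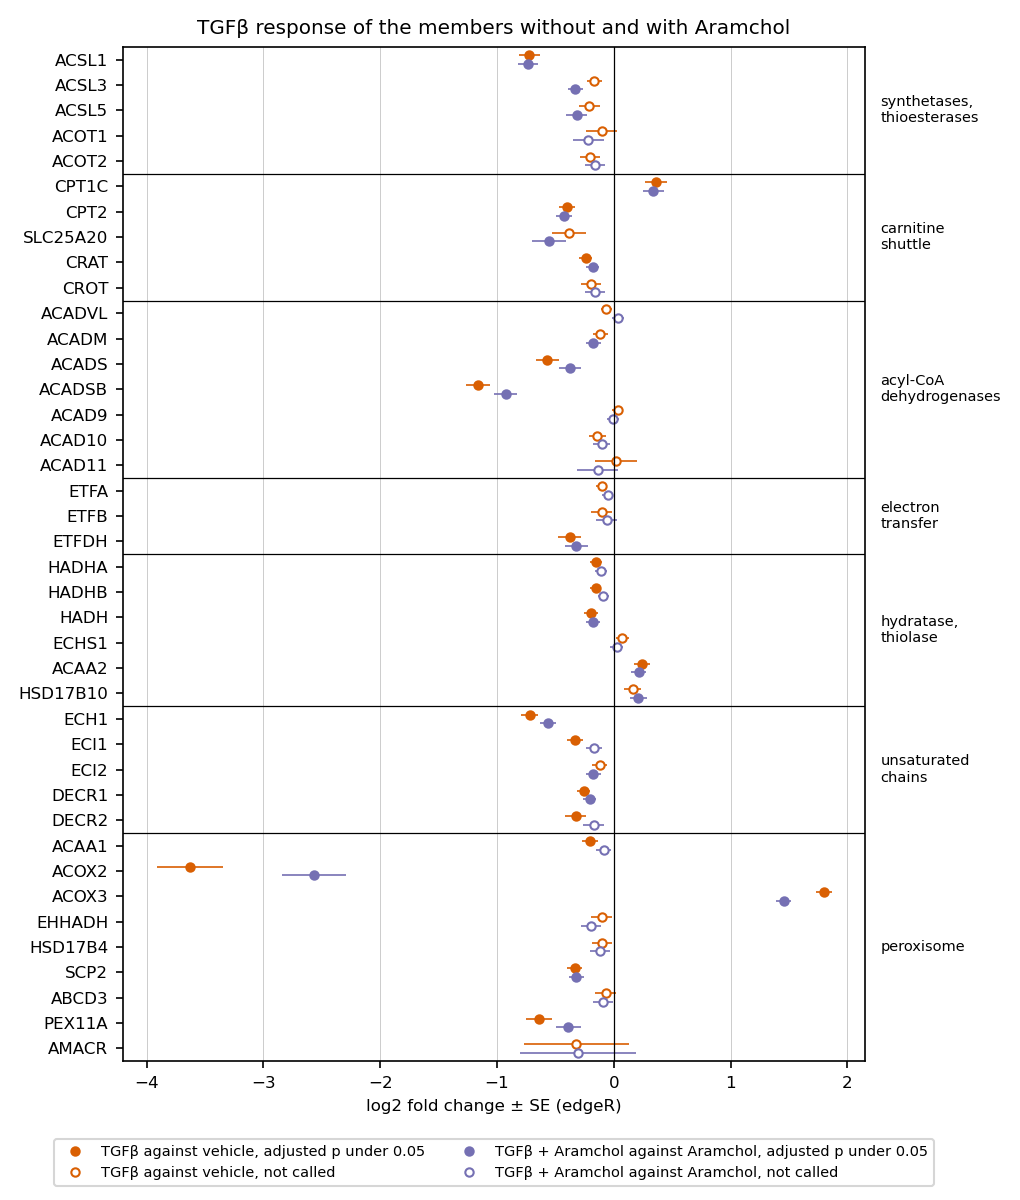
Log2 fold change ± SE (edgeR) of each member for TGFβ against vehicle (orange) and for TGFβ + Aramchol against Aramchol (purple); filled points have an adjusted p under 0.05. The pairs of points lie close together on the same side of 0 for most members, with ACOX2 at -3.63 and -2.56 and ACOX3 at 1.80 and 1.45 as the extremes.

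Aramchol alone moved no member past the threshold against vehicle, beside 0.357% of all genes tested. The smallest adjusted p was 0.17, for ACSL3 (edgeR). At an unadjusted p under 0.05 there were 8 members, beside 2533 of all genes. SLC25A20, ACSL3, ECH1, ACADVL, ETFA and ACAA2 were on the higher side, and ACOX2 and ACAD10 on the lower. DESeq2 called 2 members, ACSL3 and ETFA, both higher. SLC25A20 was at 6.83 ± 1.23 CPM with Aramchol against 5.28 ± 0.565 CPM in vehicle, and ACSL3 at 188 ± 15.8 against 161 ± 9.50 CPM. The count is sensitive to the libraries numbered 3. Without Vehicle replicate 3 ACOX2 was called lower, and with the replicate block 1 member (ACSL3, higher) was called. With the libraries numbered 1 and 2 alone 6 members were called, 4 higher (ACADVL, ACSL3, ETFA, SLC25A20) and 2 lower (ACOX2, CPT1C). The shares of all genes called in these fits were not counted.

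When Aramchol was added to TGFβ, 3 members rose against TGFβ alone and none fell, 7.5% of the members beside 2.25% of all genes tested. Among genes with a mean of at least 5 CPM 3.48% were called, and the 3 members lie among the 36 at that level. ACADVL had 265, 255 and 269 CPM in vehicle and 238, 254 and 263 CPM with TGFβ. It had 295, 295 and 286 CPM with Aramchol and 307, 302 and 290.5 CPM with both, so all 6 Aramchol libraries lay above the other 6. Against TGFβ alone ACADVL rose by a log2 fold change of 0.25 ± 0.05 (adjusted p = 0.018, edgeR).

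ETFA had 112, 115 and 114 CPM in vehicle, 105, 104 and 109 with TGFβ, 132, 125 and 122 with Aramchol, and 126, 119 and 121 with both. The Aramchol libraries again all lay above the rest, and the log2 fold change against TGFβ was 0.20 ± 0.05 (adjusted p = 0.037, edgeR). ECH1, whose libraries are given above, rose by 0.37 ± 0.07 (adjusted p = 0.018, edgeR) and remained below vehicle with both agents (log2 -0.35, adjusted p = 0.0010). All 3 moved upward within each replicate number, which follows from their lack of overlap with the TGFβ libraries and adds no support. None of the 3 calls was kept without TGFβ replicate 1 or 2, or without TGFβ + Aramchol replicate 1 or 2, where no member was called. Without Vehicle replicate 3, and with the replicate block, 5 members were called: ACOX3 (lower) and ECI1 (higher) were added. In the fit of all libraries these had log2 fold changes of -0.23 ± 0.07 (adjusted p = 0.087) and 0.22 ± 0.07 (adjusted p = 0.11, edgeR). The share of all genes called in such alternatives was not counted.

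**Figure D5:**
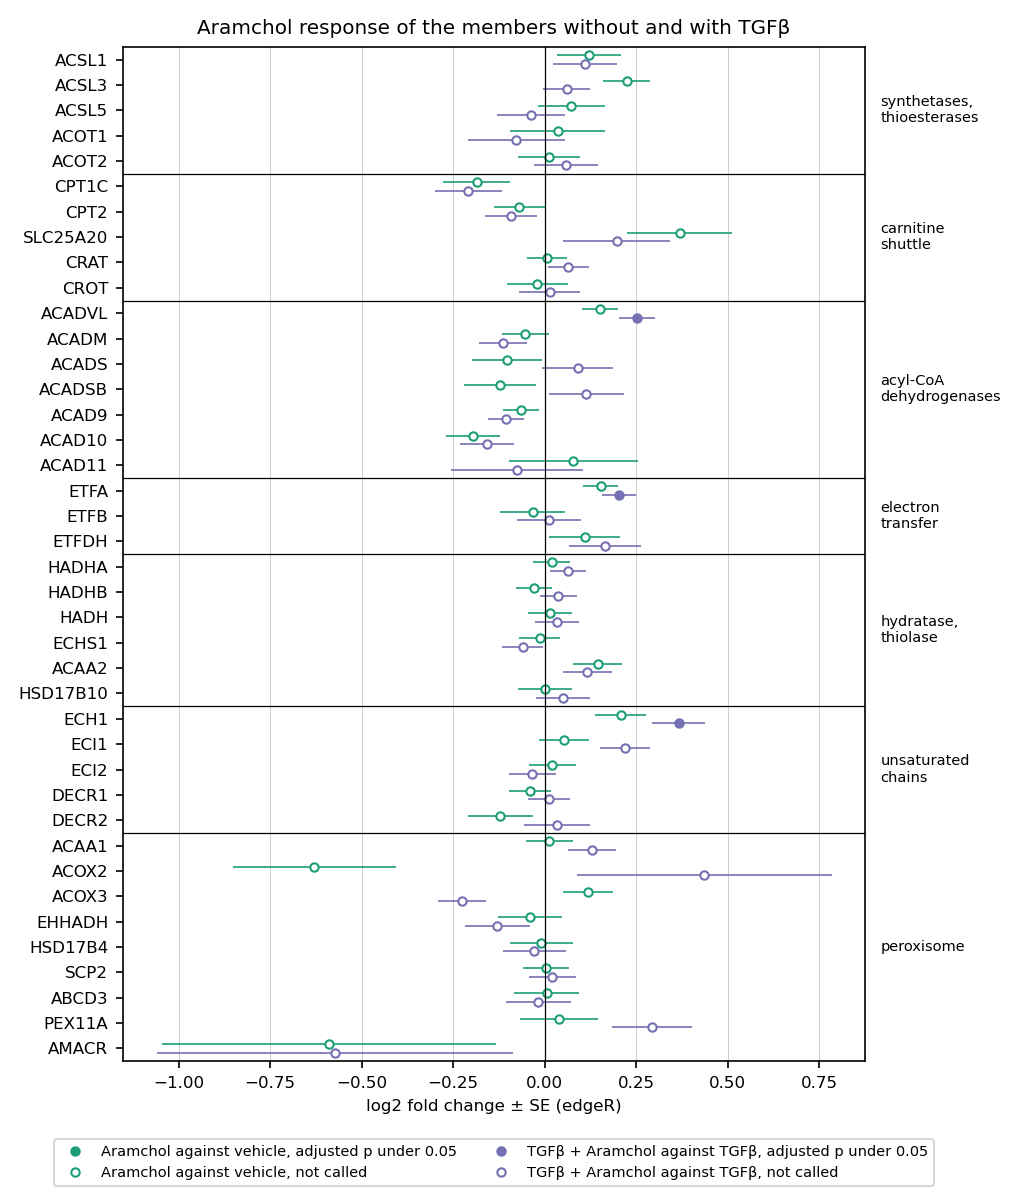
Log2 fold change ± SE (edgeR) of each member for Aramchol against vehicle (green) and for TGFβ + Aramchol against TGFβ (purple); filled points have an adjusted p under 0.05. Only ACADVL, ECH1 and ETFA are filled, all in the second comparison, and their green points lie on the same side of 0.

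Whether Aramchol altered the TGFβ response of a member was tested as an interaction, and no member was called, beside 0.0139% of all genes. Values ran from -0.34 for ACOX3 to 1.07 for ACOX2 on the log2 scale, and 39 of 40 lay within 0.5 of 0, with standard errors of 0.0667 to 0.750. At an unadjusted p under 0.05 there were 2 members, ACOX2 and ACOX3, beside 1137 of all genes, and the smallest adjusted p was 0.77 (edgeR). DESeq2 called none.

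Upstream sequence was searched on both strands in RefSeq promoter records for 30 of the 40 members (45 start sites, 250 bases before each). The motif of PPAR with RXR, the receptors known to drive this pathway, is a pair of AGGTCA copies 1 base apart; it stood in 0 of the 45 and in 0.0171% of all promoters. A single AGGTCA stood in 4.44% of the members' promoters, those of ACAD10 and ACSL5, and in 12.1% of all. The ERR motif TCAAGGTCA, which contains AGGTCA, and the SMAD motif GTCTAGAC stood in none, beside 0.319% and 0.182% of all. CAGACA, part of a TGFβ response element, stood in 11.1% and 13.6%, CCAAT in 24.4% and 32.0%, and the GC box in 71.1% and 42.6%. Only exact matches were sought. The PPAR, ERR and SMAD strings are so rare over all promoters that 0 in 45 cannot tell the members from other genes. These shares describe 250 bases each and say nothing of binding.

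Other genes of the pathway were read from lists chosen by role. Among 27 other fatty acid oxidation genes tested, 7 rose and 8 fell with TGFβ (median log2 -0.08), beside 18.9% of all genes higher and 18.1% lower. CPT1A, the gate to mitochondrial oxidation and not among the 40, fell from 60.4 ± 0.444 to 30.2 ± 3.50 CPM. It was the only gene of this list called in TGFβ + Aramchol against TGFβ (47.5 ± 11.6 CPM with both, log2 0.65 ± 0.14, adjusted p = 0.026, edgeR). The libraries with both agents had 53.4, 55.1 and 34.2 CPM of CPT1A and those with TGFβ 31.5, 32.9 and 26.3 CPM. Without replicate 3 of the combined group the log2 fold change of CPT1A was 0.84 (adjusted p = 0.00095), and with the libraries numbered 1 and 2 alone it was 0.75 (adjusted p = 1.5e-09, edgeR). The call for CPT1A was lost without any 1 of the 3 TGFβ libraries or without replicate 1 or 2 of the combined group (adjusted p = 0.066 to 0.14, edgeR). SLC27A4, a fatty acid transport protein with synthetase activity, rose by a log2 fold change of 0.60.

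Of 19 regulators of the pathway, 5 rose and 7 fell with TGFβ, beside 18.9% and 18.1% of all genes. PPARD, the nuclear receptor that activates oxidation genes in many tissues, rose from 68.0 ± 5.25 to 146 ± 3.39 CPM (log2 1.10 ± 0.06, adjusted p = 3.8e-10, edgeR). KLF15, a metabolic transcription factor, fell from 5.84 ± 1.05 to 0.610 ± 0.0724 CPM (log2 -3.25 ± 0.24). HNF4A, a liver and gut transcription factor, rose from 0.330 ± 0.101 to 6.81 ± 2.35 CPM (log2 4.34 ± 0.36), the 3 TGFβ libraries lying between 4.83 and 9.41 CPM and the vehicle libraries below 0.446 CPM.

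Pathways that feed the same ETF or follow β-oxidation were counted too. Of 18 genes of branched-chain amino acid breakdown and other ETF-linked enzymes, 9 fell and none rose with TGFβ (median log2 -0.28), and 10 fell and none rose when Aramchol was present, beside 18.1% and 14.2% of all genes lower. Of 18 genes of the tricarboxylic acid cycle 3 fell and 1 rose (median log2 0.00), and of 14 peroxisome biogenesis genes 5 fell and 1 rose (median log2 -0.14), again beside 18.1% lower and 18.9% higher. The cycle genes included OGDH and IDH3A, which fell, and IDH2, which rose. The biogenesis genes included the antioxidant enzyme CAT with PEX6, PEX7 and PEX19, which fell, and PEX13, which rose; these genes were chosen for naming after their values were seen.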

How the data were processed

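RNA of 12 libraries was measured by sequencing. Trizol extraction and an IDT 2S Plus library kit were used, per the labels' protocols. Per the submitters' processing notes, STAR 2.7.9a, featureCounts of Subread, DESeq2 and GRCh38 were used; the annotation release and strand setting were not given in the sources used here, which leaves genes that overlap others uncertain (23 members share exon bases with another gene). The deposited values are counts of reads per gene, without molecular identifiers.

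After the filterByExpr filter and TMM scaling (factors from 0.930 to 1.09), counts were fitted with edgeR 4.0.16 under R 4.3.3 (quasi-likelihood, 1 mean per group, all 12 libraries; biological coefficient of variation 8.90%). Benjamini-Hochberg adjustment ran over all 21567 tested genes. CPM are TMM-scaled. Members, lists and naming rule were chosen with earlier results of these data known. The rule names every member. It gives all 12 libraries for members called in Aramchol against vehicle, in TGFβ + Aramchol against TGFβ or in the interaction, for the 10 largest called changes with TGFβ, and for the highest per kilobase of each role. It also names the 3 smallest p of the lists of other oxidation genes and of regulators; some genes of the lists are not reported here. Alternatives were upper quartile or RLE scaling, no filter or a stricter one (10 counts, mean of 1 CPM), DESeq2 1.42.0, a replicate block, a term for number 3, libraries 1 and 2 only, only the groups compared, a robust fit, and each library left out. Same-numbered libraries deviated together (correlation over 0.1) in 17 of 18 pairs over 12789 genes. The exception was Vehicle and TGFβ number 1 (-0.0065). Libraries numbered 1 and 2 also deviated together across numbers in most pairs of groups. For TGFβ with TGFβ + Aramchol, number 2 with number 1 gave 0.364, against 0.211 for number 1 with number 1. Number 3 had negative correlations with numbers 1 and 2 in every pair of groups. Deviations were taken from the mean of each group, so a number that stands apart pushes the others the opposite way. Both patterns can follow from this and cannot decide whether the numbers pair samples. The library names also run in blocks by number. Pairing is therefore not settled. The main fit held no term for the numbers, and counts with a replicate block are given below. The scripts were tested on simulated data. Python 3.11.15, pandas 2.3.3, numpy 2.4.6 and matplotlib 3.10.9 made tables and figures. All libraries entered the main results.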

Additional observations from a re-analysis of the deposited data

How the results depend on the processing

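No member's direction turned among called values in any alternative. Members called by TGFβ against vehicle numbered 16 to 22 with single libraries left out and 18 to 26 otherwise; 15 of 20 calls were kept in every alternative, and HADHA, HADHB, HADH, ACAA1 and DECR2 lost theirs in some. TGFβ + Aramchol against Aramchol gave 14 to 22 and 18 to 24, against vehicle 14 to 18 and 14 to 24, with 10 of 21 and 13 of 18 calls kept in every alternative. Aramchol against vehicle gave 1 member without the filter, 2 with DESeq2, 1 with the replicate block, 1 with a term for number 3, 6 from libraries 1 and 2 only, and 0 to 1 with single libraries left out (1 without Vehicle replicate 3). TGFβ + Aramchol against TGFβ gave 5 with the replicate block, 5 with a term for number 3, 5 from libraries 1 and 2 only, and 0 to 5 with single libraries left out (0 without TGFβ replicate 1 or 2 or TGFβ + Aramchol replicate 1 or 2, 5 without Vehicle replicate 3), and 0 of 3 calls were kept in every alternative. The cause was not tested. Shares of all genes called in the alternatives were not counted, so these shifts are not shown to be particular to the members. The replicate block gave 25 members for TGFβ against vehicle and 24 for TGFβ + Aramchol against Aramchol. It gave 24 for TGFβ + Aramchol against vehicle and 0 for the interaction, and did not move these counts by over 1.5 times. The interaction gave 0 in every alternative run. Without TMM factors, 75 of 160 group levels moved by more than 1 SD. Depth limits AMACR and ACOX2, with as few as 4 and 9 counts in a library.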

Other observations

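Beyond the members, the naming rule and the genes marked above as chosen after their values were seen, 2 further genes were chosen in that way. PPARGC1A, a coactivator of mitochondrial genes, fell from 8.39 ± 1.60 CPM in vehicle to 2.43 ± 0.247 CPM with TGFβ and stood at 2.13 ± 0.230 CPM with both agents. PPARA, the receptor of the pathway in liver, fell from 41.2 ± 1.53 to 35.6 ± 0.828 CPM with TGFβ (adjusted p = 0.011, edgeR), and at 42.2 ± 3.20 CPM with both agents it was higher than with TGFβ alone (log2 0.25, adjusted p = 0.045, edgeR).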
